A study of Mus musculus with 49 samples.

Results

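The 10 genes described here are Bdnf, Homer1, Fosl2, Nptx2, Vgf, Scg2, Nr4a2, Nr4a3, Ptgs2 and Inhba. In this report they are grouped as part of the slower wave of genes that neurons switch on when they are active. They were taken by name from the authors' deposited tables of compared genes and are 10 of the 38355 genes in the count table. Their mRNA was followed in 49 libraries of polyadenylated RNA from mouse hippocampus that lacked or carried endophilin A, a family of membrane-bending proteins of endocytosis whose genes are Sh3gl2 for endophilin A1, Sh3gl1 for A2 and Sh3gl3 for A3. At postnatal day 13 to 21 by the age label, the groups were endoA1A2 double knockouts (DKO, n = 7), 7 samples labelled KOWT littermate controls (KOWT) and 10 wild type controls (WT-DKO). At day 0, the groups were endoA1A2A3 triple knockouts (TKO, n = 9), 8 samples labelled KOWTKO littermate controls (KOWTKO) and 8 wild type controls (WT-TKO). No sample was treated, per the labels, and how far handling or dissection moved these genes was not tested. The growth label calls every sample newborn, against the age label of the 3 older groups, which was followed here. The labels do not state whether the samples of 1 group are separate animals, and p-values cover the spread among samples only, which could be technical.

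When a neuron fires, calcium entry activates kinases that act on transcription factors already bound to DNA, among them CREB, SRF with its partner Elk1, and MEF2. A first wave of immediate early genes follows within minutes and includes further transcription factors such as Fos and Npas4. The slower wave includes genes for proteins that act at synapses or are secreted. Fosl2, Nr4a2 and Nr4a3, which are grouped with that wave here, encode transcription factors. Nr4a1, of the same family as Nr4a2, is counted below as an immediate early gene. Mice that lack Bdnf are impaired in long-lasting changes of synaptic strength in the hippocampus. Granule cells of the dentate gyrus, whose output goes to CA3, are a well known site of this response.

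The secreted ligands are Bdnf, the neurotrophin that signals through the receptor TrkB (ENSMUSG00000048482, GRCm38 chromosome 2, 109674700 to 109727007), and Inhba, whose product pairs to form activin A (ENSMUSG00000041324, chromosome 13, 16011851 to 16031621). The secreted granins and pentraxin are Vgf (ENSMUSG00000037428, chromosome 5, 137026392 to 137033351), Scg2, the precursor of the peptide secretoneurin (ENSMUSG00000050711, chromosome 1, 79434669 to 79440120), and Nptx2, which clusters AMPA receptors (ENSMUSG00000059991, chromosome 5, 144545902 to 144557478). Homer1 is a scaffold of metabotropic glutamate receptors at the postsynaptic density (ENSMUSG00000007617, chromosome 13, 93299635 to 93405129), and Ptgs2 is the inducible cyclooxygenase that makes prostaglandins (ENSMUSG00000032487, chromosome 1, 150100031 to 150108227). The transcription factors are Fosl2, an AP-1 subunit (ENSMUSG00000029135, chromosome 5, 32135801 to 32157842), and the orphan nuclear receptors Nr4a2 (ENSMUSG00000026826, chromosome 2, 57106830 to 57124003) and Nr4a3 (ENSMUSG00000028341, chromosome 4, 48045153 to 48086447). Counts were made per gene, so the short activity-induced form of Homer1 and its long constitutive forms are summed, as are the transcripts from the several Bdnf promoters. Bdnf also shares 896 exonic bases with the antisense gene Gm45346, and the kit keeps no strand to separate reads of the pair.

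The promoters of these genes are shown for the core of the site that CREB binds, the cyclic AMP response element (CRE). Of the 8 genes with a promoter entry, 6 carried it. RefSeq promoter windows on GRCm38.p6, 250 bases before to 50 after a start site, were matched by symbol for 8 of the 10 genes (15 windows in all), with no entry for Nptx2 and Vgf. The core TGACG, searched on both strands, was found in 6 of the 15 windows, and 20.8% of 32817 windows of all genes held it. That share is per window, and a gene with several windows, such as Bdnf with 7, has more chances of a match. The share per gene was not computed. The match of Ptgs2 lay after the start site, at bases 14 to 18. The full site TGACGTCA, which contains the core on each strand, was found in 1 window, that of Scg2, and in 1.79% of all windows. The AP-1 site TGANTCA was found in 1 window, one of the 7 of Bdnf, and in 7.81% of all windows. The EGR site GCGNGGGCG was found in the windows of Fosl2 and Nr4a2 and in 5.56% of all, the MEF2 site in those of Nr4a2 and Inhba and in 3.19% of all, and the SRF site (CArG box) in none of the 15 and in 1.63% of all. A match is a description of letters and shows no binding. The stretches below are written 5′ to 3′ along the gene's strand, with the core of the CRE in capitals for Bdnf, Homer1, Nr4a2 and Nr4a3, the full site in capitals for Scg2, and the MEF2 site in capitals for Nr4a2 and Inhba.
Bdnf, chr2:109692336-109692435, plus strand, ending 1 base before the start site of the third window: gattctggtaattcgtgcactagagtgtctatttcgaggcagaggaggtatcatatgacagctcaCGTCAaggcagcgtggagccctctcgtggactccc
Homer1, chr13:93303657-93303756, plus strand: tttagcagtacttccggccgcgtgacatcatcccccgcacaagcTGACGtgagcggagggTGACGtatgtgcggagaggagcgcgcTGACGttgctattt
Nr4a2, chr2:57124103-57124213, minus strand: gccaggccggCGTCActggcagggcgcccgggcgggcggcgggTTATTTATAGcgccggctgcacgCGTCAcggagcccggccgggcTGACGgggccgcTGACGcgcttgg
Nr4a3, chr4:48045065-48045151, plus strand: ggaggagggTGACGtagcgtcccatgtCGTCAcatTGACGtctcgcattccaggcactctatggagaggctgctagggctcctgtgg
Inhba, chr13:16011731-16011790, plus strand: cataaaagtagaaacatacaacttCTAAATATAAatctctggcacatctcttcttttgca
Scg2, chr1:79440076-79440105, minus strand: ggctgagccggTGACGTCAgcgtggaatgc
The Bdnf and Homer1 stretches lie inside the annotated span of their genes with no annotated exonic base, the Nr4a2, Nr4a3 and Inhba stretches lie upstream of their genes, and the Scg2 stretch lies within an annotated exon. Homer1 held 3 cores in its stretch, and Nr4a2 and Nr4a3 held 4 each in their windows.

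Libraries held between 13.12 M and 56.98 M reads counted on genes. Sh3gl1, the gene that separates mutants from littermates, stood at 0.352 to 1.16 CPM (counts per mega of reads, scaled by TMM over all libraries) in DKO and 52.6 to 66.4 in KOWT, and at 0.459 to 1.32 in TKO and 33.7 to 83.3 in KOWTKO. Sh3gl2 was low in the littermates as well (medians of 39.9 CPM for DKO and 39.6 for KOWT against 440.2 for WT-DKO, and of 21.6 for TKO and 19.1 for KOWTKO against 196.5 for WT-TKO), and Sh3gl3 was below 0.5 CPM in every TKO and KOWTKO library. A comparison with littermates therefore sets loss of Sh3gl1 against its presence. By a target gene or by myelin markers, 7 libraries stood apart. Sh3gl3 was at 6.52 to 15.7 CPM in DKO replicates 5 and 6 and KOWT replicates 4, 5 and 6, against medians of 61.7 and 62.7 in their groups, and Sh3gl1 was at 33.7 CPM in KOWTKO replicate 3. In WT-TKO replicate 8 the 10 myelin markers summed to 979.2 CPM, against a median of 80.8 in its group. KOWTKO replicate 7 differed in its makeup, with 5.78% of reads on its 10 most abundant genes (2.82% to 4.09% in every other library) and 15.06% of reads on no feature (8.89% to 11.59% in the rest of its group). Without it, 1444 genes in place of 800 were called in TKO against KOWTKO, and still none of the genes described here. Summed choroid plexus markers ran from 21.3 to 6251 CPM in the older libraries, with high and low libraries in all 3 groups. Markers of hippocampal tissue were present, with 7 of 7 dentate gyrus, 5 of 5 CA1 and 8 of 8 excitatory neuron markers detected (by any read) in every library of every group. Of 5 CA3 markers, 4 were detected in every KOWTKO library and 5 in every library of each other group. Of 8 inhibitory neuron markers, 7 were detected in every library of TKO and of WT-TKO, and 8 in every library of each other group.

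In the older mice, DKO had lower levels than KOWT for 6 of the 10 genes and a higher level for none. The 6 were Bdnf, Homer1, Fosl2, Nr4a2, Nr4a3 and Inhba, with folds of 0.476 to 0.795, while Nptx2, Vgf, Scg2 and Ptgs2 did not pass the test. Over all 16114 genes tested in this comparison, 10.6% were called lower and 10.2% higher, at an adjusted p under 0.05 in edgeR's quasi-likelihood test. The median log2 fold change was -0.39 over the 10 genes and 0.004 over all genes. DESeq2 and limma-voom each called 6 of the 10 lower and 0 higher.

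**Figure D1:**
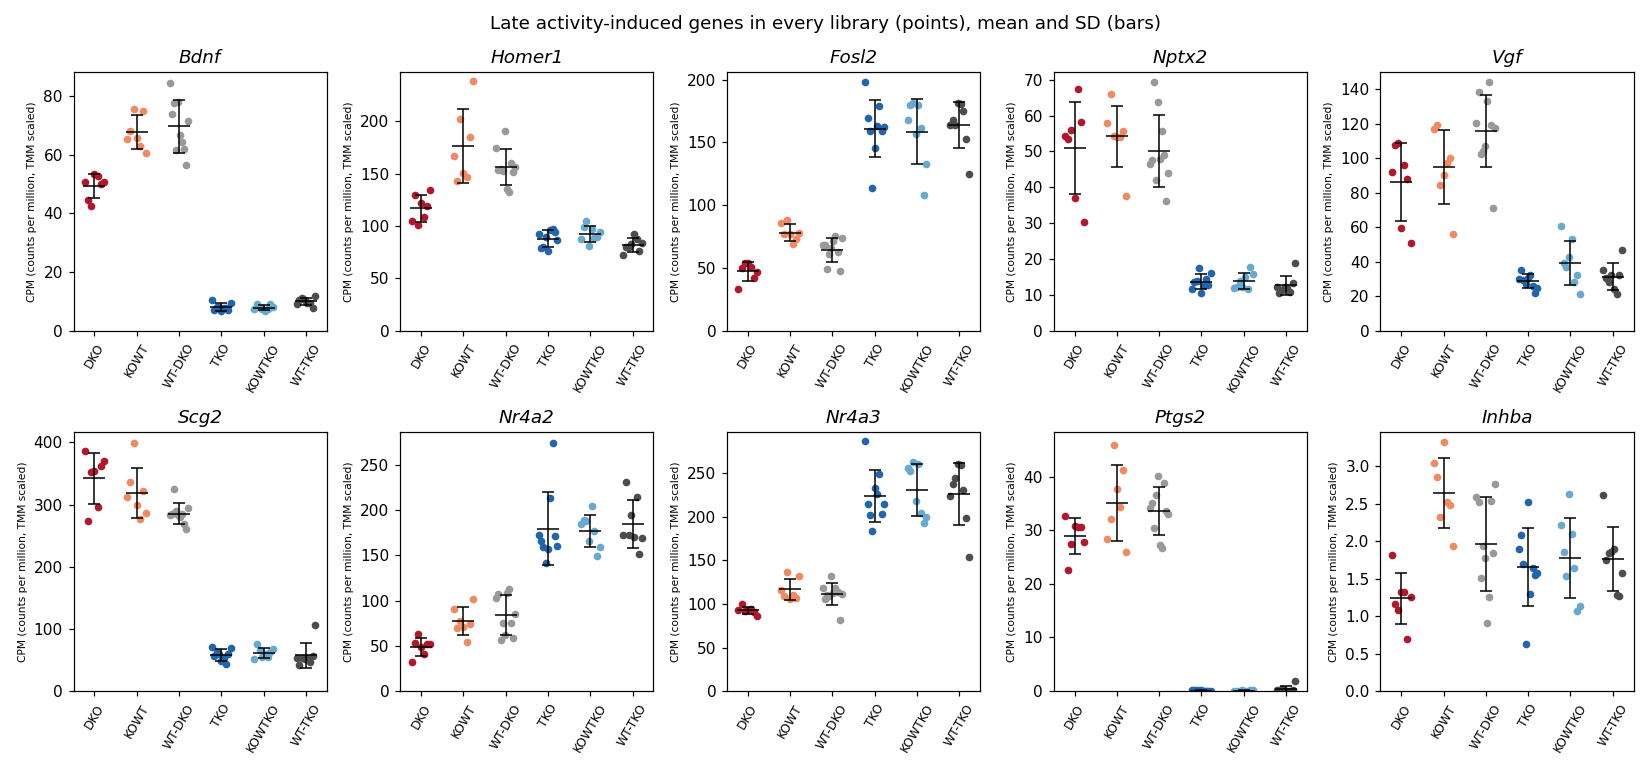
Level of each of the 10 genes (y axis, CPM, scaled by TMM over all libraries) in every library (points) of the 6 groups, with the group mean and SD (bars). The 7 DKO libraries lie below all 7 KOWT libraries for Bdnf, Homer1, Fosl2, Nr4a3 and Inhba, the 3 day 0 groups overlap for every gene, and Ptgs2 is near 0 at day 0. The share of all genes that separate in this way was not counted.

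Among the secreted ligands, Bdnf measured 42.6 CPM in the lowest, 50.5 in the median and 53.4 in the highest DKO library, and 60.6, 65.5 and 75.6 CPM in KOWT. The groups did not overlap, and the log2 fold change was -0.45 ± 0.08 (SE; edgeR adjusted p = 0.000237). Here and below, overlap was examined for the genes described only, so the share of all genes without overlap is not known. Inhba was a rare transcript, at 0.694, 1.26 and 1.82 CPM in DKO and 1.93, 2.52 and 3.32 in KOWT. All 7 DKO libraries again lay below all 7 KOWT libraries, with a log2 fold change of -1.07 ± 0.21 (edgeR adjusted p = 0.000892). Those levels rested on few reads, 11 to 136 per library over the whole series.

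The scaffold Homer1 stood at 100.7, 118.7 and 133.9 CPM in DKO (lowest, median and highest library) and 142.9, 167.2 and 238.7 in KOWT, without overlap. Its log2 fold change was -0.59 ± 0.10 (edgeR adjusted p = 0.000286). KOWT libraries spread more widely than DKO libraries for this gene, with coefficients of variation of 19.9% and 10.9%.

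All 3 transcription factor genes fell. Fosl2 measured 33.6, 50.3 and 54.4 CPM in DKO and 69.2, 77.0 and 87.8 in KOWT, without overlap, for a log2 fold change of -0.72 ± 0.10 (edgeR adjusted p = 5.35e-05). Nr4a2 measured 32.0, 52.1 and 62.6 CPM in DKO and 54.6, 74.1 and 102 in KOWT. For Nr4a2 the groups touched, with 6 of 7 DKO libraries below all KOWT libraries, and the log2 fold change was -0.67 ± 0.17 (edgeR adjusted p = 0.00884). Nr4a3 showed a smaller fall with little spread, from 106, 111 and 137 CPM in KOWT to 86.7, 92.7 and 100.4 in DKO. Its groups did not overlap and its log2 fold change was -0.33 ± 0.07 (edgeR adjusted p = 0.00229).

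The 4 genes that did not pass the test in DKO against KOWT included all 3 of the granins and pentraxin. Nptx2 ranged from 30.2 to 67.3 CPM in DKO and from 37.5 to 65.9 in KOWT (log2 fold change -0.09, 95% interval -0.38 to 0.20). Vgf ranged from 51.0 to 109 CPM in DKO and from 56.2 to 119 in KOWT (-0.14, -0.47 to 0.19). Scg2, the most abundant of the 10 per length, ranged from 274 to 386 CPM in DKO and from 277 to 399 in KOWT (0.10, -0.04 to 0.24). These intervals leave room for falls of the size seen in Nr4a3 for Nptx2 and Vgf, but not for Scg2. Ptgs2 was at 22.5, 30.7 and 32.7 CPM in DKO and 25.9, 34.2 and 46.0 in KOWT, and all 7 DKO libraries were below the KOWT median. Its log2 fold change was -0.27 ± 0.11 (edgeR adjusted p = 0.0749), and it passed the test without KOWT replicate 1 or 7. In the authors' deposited table for this comparison, 7 of the 10 genes were lower at an adjusted p under 0.05, with Ptgs2 among them (log2 fold change -0.24, adjusted p = 0.0398).

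Some cell type markers were called between the same groups, where 10.6% of all genes were lower and 10.2% higher. Counts of 1 or 2 in lists this short are near that share. No microglia, endothelial, erythrocyte or thalamus marker was called. The called markers are named here after their values were seen, because they are few. Of the 7 dentate gyrus markers, 2 were lower, Dsp and Calb1, and 0 higher in DKO against KOWT, and their summed level ran from 419 to 557 CPM in DKO and from 494 to 604 in KOWT. With the mean of these markers as a covariate, a fit added after the data were seen, the 6 genes were still called lower, Inhba at -0.82 (edgeR adjusted p = 0.0106) and Nr4a2 at -0.96 (adjusted p = 0.000246). Excitatory neuron markers were lower for 2 of 8, Cck and Nrn1 (sums of 5921 to 8936 against 7175 to 9572 CPM), CA1 markers for 1 of 5, Wfs1 (465 to 754 against 590 to 869 CPM) and myelin markers for 3 of 10, Mobp, Cnp and Ugt8a (4559 to 14520 against 10960 to 21220 CPM). Meningeal and fibroblast markers were higher for 3 of 8, the collagens Col1a1, Col1a2 and Col3a1 (519 to 1245 against 376 to 723 CPM), and choroid plexus markers, of which 0 of 8 were called, had median sums of 1033 CPM in DKO and 30.1 in KOWT. Other lists moved in both directions. Of 8 inhibitory neuron markers, Sst and Pvalb were lower and Gad2 higher (821 to 1131 against 749.7 to 959.2 CPM). Of 8 astrocyte markers, S100b was lower and Gfap higher (5280 to 6638 against 5840 to 6539 CPM), and of 5 oligodendrocyte precursor markers, Olig1 was lower and Pdgfra higher (412 to 756 against 535 to 717 CPM). Of 5 CA3 markers, Prss35 was higher (231.7 to 368 against 248 to 305 CPM). No marker of these lists was at 0 in any DKO or KOWT library. The same 6 genes were called lower with the myelin mean or the choroid plexus mean as a covariate, and no such fit was made with the other marker lists. Some myelin and dentate gyrus markers were themselves called between these groups. Fits with their means therefore cannot separate tissue composition from genotype, and the part of tissue composition was not tested. In bulk tissue, fewer cells of a type and less RNA per cell cannot be told apart. Without the 5 libraries low in Sh3gl3, the count of genes called lower stayed at 6 of 10, from -0.41 for Nr4a3 to -0.90 for Inhba on the log2 scale.

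Against separate wild types, 6 of the 10 genes were lower in DKO and 1 was higher, beside backgrounds of 13% lower and 13.1% higher. This comparison shares the DKO libraries with the one above. The 6 were those that fell against KOWT. Bdnf stood at 56.4, 69.1 and 84.2 CPM in WT-DKO (lowest, median and highest library), above all DKO libraries, and its log2 fold change was -0.49 ± 0.07 (edgeR adjusted p = 2.19e-05). Nr4a2 measured 56.7, 80.2 and 113 CPM in WT-DKO, with 6 of 7 DKO libraries below all of them (-0.79 ± 0.16, adjusted p = 0.00107). Homer1, at 132, 153.8 and 190.6 CPM in WT-DKO, fell by 0.41 ± 0.09 on the log2 scale (adjusted p = 0.00228), with 6 of 7 DKO libraries below all wild types. Fosl2 was at 48.0, 67.4 and 75.3 CPM in WT-DKO and fell by 0.44 ± 0.10 (adjusted p = 0.00171), with 3 of 7 DKO libraries below all wild types and all 7 below their median.

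Nr4a3 fell by 0.26 ± 0.07 on the log2 scale against WT-DKO (edgeR adjusted p = 0.0066) although no DKO library lay below the lowest wild type, replicate 9 at 81.7 CPM. Inhba fell by 0.64 ± 0.20 (adjusted p = 0.0192), with wild types from 0.911 to 2.77 CPM and all 7 DKO libraries below their median. The call for Inhba ended without the libraries low in Sh3gl3 (-0.53, adjusted p = 0.103), without DKO replicate 6 (-0.53, adjusted p = 0.0551) and with dentate gyrus markers as a covariate (-0.45, adjusted p = 0.0953). Scg2 was the 1 gene of the 10 that rose. It stood at 261, 284 and 324 CPM in WT-DKO and 274, 353 and 386 in DKO, 5 of 7 DKO libraries lay above all wild types, and the log2 fold change was 0.27 ± 0.07 (adjusted p = 0.00416). Vgf, a second granin-like precursor, was at 71.5, 118 and 144 CPM in WT-DKO and all 7 DKO libraries lay below that median, with a log2 fold change of -0.42 ± 0.16 on the border of the threshold (adjusted p = 0.0503). DESeq2 and limma-voom each called 7 of the 10 lower and 1 higher. In the authors' deposited table, 8 were lower, with Vgf (adjusted p = 0.0228) and Ptgs2 (adjusted p = 0.0347) among them, and 1 was higher. Markers moved here too: all 5 erythrocyte markers were lower (summed 9.97 to 76.1 CPM in DKO and 75.0 to 184 in WT-DKO), as were 4 of 8 microglia markers (251 to 352 against 306 to 365 CPM) and 2 of 5 CA1 markers (465 to 754 against 576 to 866 CPM). Of 8 excitatory neuron markers 4 were lower and 1 higher (5921 to 8936 against 6384 to 8429 CPM), and of 8 meningeal markers 2 were higher (519 to 1245 against 275 to 889 CPM). The part of the erythrocyte, microglia, CA1, excitatory neuron and meningeal markers was not tested.

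KOWT and WT-DKO differ in Sh3gl2, which was low in KOWT. Sh3gl3 was also low in KOWT replicates 4, 5 and 6 (12.8 to 15.7 CPM, against 41.1 to 62.6 in WT-DKO). WT-DKO are separate wild types, so Sh3gl2 and any difference of cohort cannot be told apart. None of the 10 genes was called between KOWT and WT-DKO. At an unadjusted p under 0.05, 3 were higher and 0 lower, and DESeq2 and limma-voom called 0. The background was 2.09% lower and 2.33% higher. Fosl2 was at 69.2, 77.0 and 87.8 CPM in KOWT against 48.0, 67.4 and 75.3 in WT-DKO, with 5 of 7 KOWT libraries above all wild types (log2 fold change 0.29, 95% interval 0.10 to 0.47, edgeR adjusted p = 0.0887). It passed with choroid plexus (adjusted p = 0.0482), myelin (0.0467) or dentate gyrus markers (0.0315) as a covariate. Inhba had 3 of 7 KOWT libraries above all wild types (0.43, 0.06 to 0.79, adjusted p = 0.23). For Fosl2 and Inhba the log2 fold changes in DKO were -0.72 and -1.07 against KOWT and -0.44 and -0.64 against WT-DKO. In the shared fit, the gap between the 2 changes is the KOWT against WT-DKO change itself, which did not pass the test for either gene. Bdnf gave -0.04 (95% interval -0.17 to 0.10).

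**Figure D2:**
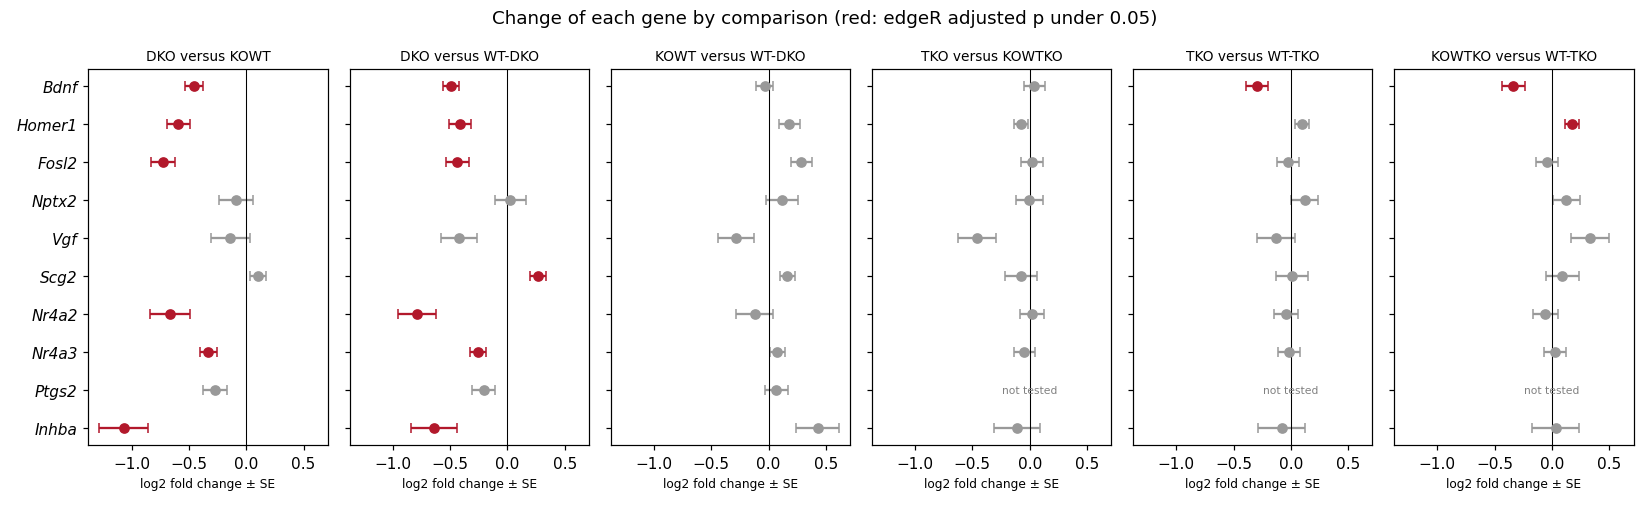
Log2 fold change of each gene (x axis, bars are SE) in the 6 comparisons within an age, with called genes in red. The 6 genes called lower in DKO against KOWT are also called lower against WT-DKO, and at day 0 calls are limited to Bdnf and Homer1.

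At day 0, none of the 9 genes tested was called between TKO and KOWTKO, beside backgrounds of 2.68% lower and 2.41% higher, and the median log2 fold change was -0.05 over the 9 genes. At an unadjusted p under 0.05, 1 was lower, DESeq2 called 1 lower and limma-voom 0. That gene was Vgf, at 21.9, 29.6 and 35.6 CPM in TKO (lowest, median and highest library) and 21.5, 38.3 and 60.8 in KOWTKO. All 9 TKO libraries lay below the KOWTKO median, the groups overlapped, and the log2 fold change was -0.46 ± 0.16 (edgeR adjusted p = 0.0944). Under DESeq2 the adjusted p was 0.0459, and in the authors' deposited table it was 0.044. Vgf also passed the edgeR test without KOWTKO replicate 8, the lowest of its group (adjusted p = 0.0264).

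The genes that fell in older DKO had the following levels at day 0. Bdnf was at 6.59, 7.94 and 10.5 CPM in TKO and 6.78, 7.74 and 9.06 in KOWTKO (log2 fold change 0.04, 95% interval -0.15 to 0.23). Homer1 ranged from 75.7 to 97.1 CPM in TKO and from 80.5 to 104.5 in KOWTKO (-0.08, -0.19 to 0.04). Fosl2 was at 114 to 198 CPM in TKO and 108.5 to 182 in KOWTKO (0.02, -0.17 to 0.21), Nr4a2 at 141 to 274 and 150 to 204 (0.02, -0.18 to 0.22), and Nr4a3 at 184 to 287 and 193 to 263 (-0.05, -0.23 to 0.14). Inhba, at 0.633 to 2.52 CPM in TKO and 1.08 to 2.64 in KOWTKO, had an interval of -0.50 to 0.28. None of these 6 intervals reached the log2 fold change measured for its gene in DKO against KOWT. Ptgs2 was too rare at day 0 to be tested, with 0 to 6 reads in each TKO and KOWTKO library.

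Against separate newborn wild types, Bdnf was lower both in TKO and in KOWTKO. It measured 7.74, 10.1 and 11.8 CPM in WT-TKO, and the log2 fold change was -0.30 ± 0.09 in TKO (edgeR adjusted p = 0.0243) and -0.34 ± 0.10 in KOWTKO (adjusted p = 0.0161). In TKO 8 of 9 libraries, and in KOWTKO 8 of 8, lay below the WT-TKO median. Both comparisons share the WT-TKO libraries, and both set groups low in Sh3gl2 and Sh3gl3 against wild type. Of the 9 genes, 1 was lower and 0 higher in TKO (backgrounds of 12% and 10.8%), and 1 was lower and 1 higher in KOWTKO (backgrounds of 10.5% and 10.5%), which is near the background in both. The call in TKO ended without WT-TKO replicate 3 (-0.27), without KOWTKO replicate 3 and WT-TKO replicate 8 (-0.26), and with dentate gyrus (-0.16) or myelin markers (-0.24) as a covariate. The call in KOWTKO ended with the dentate gyrus covariate (-0.26). The gene higher in KOWTKO was Homer1, at 80.5, 91.8 and 104.5 CPM against 72.0, 81.9 and 92.8 in WT-TKO. Its log2 fold change was 0.17 ± 0.06 (adjusted p = 0.0441), and leaving out any of 9 single libraries of the 16 ended the call. Without WT-TKO replicate 8, Vgf and Scg2 were called higher in KOWTKO as well, which made 3 of 9. Many markers differed from the newborn wild types. In TKO, 7 of 8 meningeal markers were lower (52.7 to 129 CPM summed, against 81.8 to 471 in WT-TKO), as were 6 of 8 microglia (65.2 to 81.1 against 73.2 to 135.5), 5 of 8 astrocyte (1056 to 1238 against 1139 to 1751) and 4 of 7 inhibitory neuron markers (269.8 to 359 against 319.7 to 457). In KOWTKO, 6 of 8 microglia markers (58.2 to 77.5 CPM) and 5 of 7 choroid plexus markers (14.2 to 35.6, against 37.8 to 1136 in WT-TKO) were lower. Myelin markers were lower for 3 of 8 in TKO and 5 of 8 in KOWTKO (66.3 to 116 and 70.3 to 87.2 CPM, against 75.0 to 979.2), and dentate gyrus markers for 2 of 7 and 1 of 7 (104 to 168 and 121.6 to 159.5 CPM, against 101.6 to 174). Without WT-TKO replicate 8, the myelin counts were 1 of 8 and 1 of 8 and the microglia count in KOWTKO was 4 of 8. The part of the meningeal, microglia, astrocyte and inhibitory neuron markers in these results was not tested.

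Between WT-TKO at day 0 and WT-DKO at day 13 to 21, 6 genes were higher in the older wild types and 3 lower, where 39.5% of all genes were higher and 41.5% lower. Age, cohort and any difference in handling cannot be told apart in this contrast. Bdnf, the granins, the pentraxin and Homer1 rose. The count of 6 also includes Ptgs2, whose outcome was fixed by the filter, as given below, and is not a result. Bdnf went from 7.74, 10.1 and 11.8 CPM (lowest, median and highest library) to 56.4, 69.1 and 84.2, a log2 fold change of 2.80 ± 0.08 (edgeR adjusted p = 2.14e-33). Scg2 rose by 2.31 ± 0.12, Nptx2 by 2.00 ± 0.13, Vgf by 1.89 ± 0.17 and the scaffold Homer1 by 0.93 ± 0.08 on the log2 scale, each without overlap of the groups. How many of all genes separate fully between the ages was not counted. Ptgs2 went from 0 to 1.93 CPM in WT-TKO to 26.6 to 40.0 CPM in WT-DKO. It passed the filter on low counts through the older libraries alone and had to differ here, and no fold is given, since the newborn wild types held 0 to 6 reads each apart from 27 in WT-TKO replicate 8.

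The transcription factors went the other way. Fosl2 fell from 125, 166 and 182 CPM in WT-TKO to 48.0, 67.4 and 75.3 in WT-DKO (log2 fold change -1.35 ± 0.10, edgeR adjusted p = 4.75e-18). Nr4a2 fell from 151 to 231 CPM down to 56.7 to 113 (-1.13 ± 0.13) and Nr4a3 from 154 to 261 CPM down to 81.7 to 132 (-1.02 ± 0.08). For all 3, every older wild type lay below every newborn one. Inhba was not called, at 1.27 to 2.62 CPM in WT-TKO and 0.911 to 2.77 in WT-DKO (0.17, 95% interval -0.22 to 0.55).

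Per length, in CPM divided by kilobases of annotated exon (RPKM), the order of the genes also changed with age. In WT-DKO, Scg2 came first (104 to 129 RPKM, no overlap with any other), then Vgf (24.04 to 48.5), whose lowest library overlapped the range of Nr4a2 and Nptx2. Nr4a2 (median 19.8 RPKM), Nptx2 (18.8) and Nr4a3 (18.7) followed with ranges that overlapped each other and the top of Homer1, then Homer1 (12.8) and Bdnf (11.1), which overlapped, and Ptgs2 (7.38) and Fosl2 (6.96), which overlapped. Inhba was last, at 0.143 to 0.433 RPKM. In WT-TKO, Nr4a2 (median 42.5 RPKM) and Nr4a3 (39.1) came first and overlapped, then Scg2 (21.0), which overlapped both through replicate 8, and Fosl2 (17.1). Vgf (10.6), Homer1 (6.84) and Nptx2 (4.72) followed, each overlapping the next, then Bdnf at 1.24 to 1.90 RPKM and Inhba at 0.198 to 0.410. Ptgs2, at 0 to 0.422 RPKM, overlapped Inhba.

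**Figure D3:**
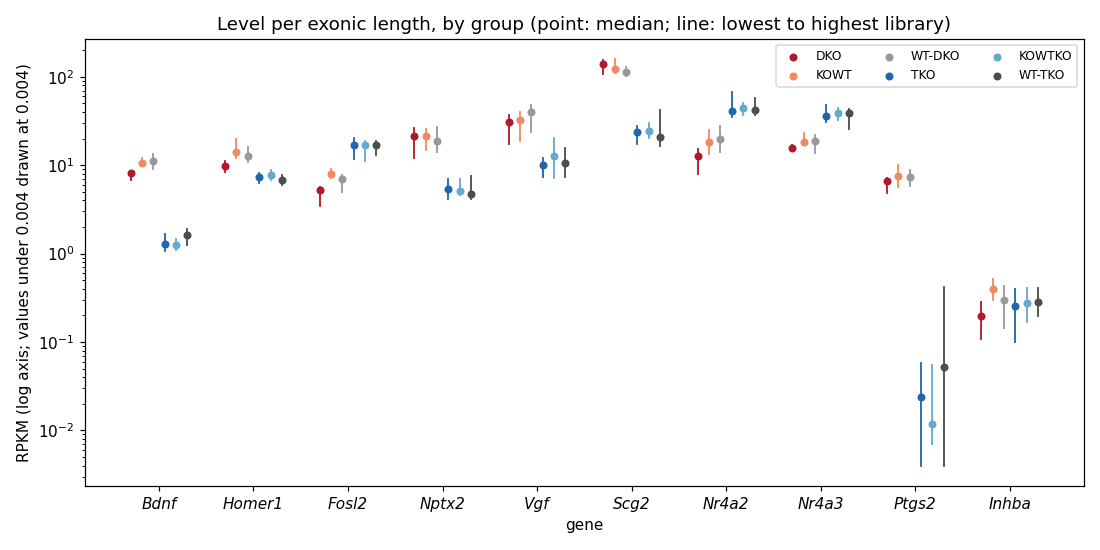
Level per exonic length of each gene (y axis, RPKM, log scale) by group, as the median (point) and the range of the libraries (line). Scg2, Vgf, Nptx2, Bdnf and Ptgs2 stand higher in the 3 older groups, and Fosl2, Nr4a2 and Nr4a3 in the 3 day 0 groups.

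To ask whether genotype acted differently at the 2 ages, the older log2 fold change minus the newborn one was tested in 1 fit of 49 libraries. The older and newborn comparisons share no library, but they differ in Sh3gl3 as well as in age, so the loss of Sh3gl3 and age cannot be told apart. For DKO against KOWT minus TKO against KOWTKO, 5 of the 10 genes were lower and 0 higher, beside 4.78% lower and 4.12% higher over all genes. The difference was -0.50 ± 0.12 for Bdnf (edgeR adjusted p = 0.00624), -0.52 ± 0.12 for Homer1 (adjusted p = 0.003), -0.74 ± 0.15 for Fosl2 (adjusted p = 0.000978), -0.69 ± 0.20 for Nr4a2 (adjusted p = 0.0251) and -0.96 ± 0.30 for Inhba (adjusted p = 0.0337). Nr4a3, which fell in DKO, gave -0.29 ± 0.13 (adjusted p = 0.145) and is not shown to differ between the ages. The calls for Nr4a2 and Inhba ended without a filter on low counts (adjusted p = 0.0509 and 0.0576) and without the 7 libraries that stood apart (adjusted p = 0.0592 and 0.254), which left 3 of 10. The differences themselves were -0.69 and -0.96 without a filter and -0.82 and -0.77 without the 7 libraries.

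With wild types as the reference at both ages, 3 of the 10 genes were lower and 0 higher, beside 4.55% and 5.55%. They were Homer1 (-0.52 ± 0.11, edgeR adjusted p = 0.00163), Nr4a2 (-0.75 ± 0.19, adjusted p = 0.00815) and Fosl2 (-0.42 ± 0.14, adjusted p = 0.0466). Fosl2 lost its call without the 7 libraries (-0.36, adjusted p = 0.128), which left 2 of 10, in limma-voom (adjusted p = 0.0547) and without a filter on low counts (-0.43, adjusted p = 0.0685). Bdnf, lower against wild type at both ages, gave -0.21 ± 0.12 (adjusted p = 0.266). For KOWT against WT-DKO minus KOWTKO against WT-TKO, none was called by edgeR, beside 5.52% and 5.88%. Vgf was lower and Bdnf, Fosl2 and Ptgs2 higher at an unadjusted p under 0.05, DESeq2 called Vgf lower and Ptgs2 higher, and limma-voom called 0 of either. Ptgs2 entered these fits through the older libraries, and its day 0 term rested on 0 to 6 reads in each newborn library but WT-TKO replicate 8, so its part in the 3 differences is not a measurement.

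The other genes of the activity response were counted from lists drawn up with earlier results of these data known. Over all genes, 10.6% were lower and 10.2% higher in DKO against KOWT, 13% and 13.1% in DKO against WT-DKO, and 2.09% and 2.33% in KOWT against WT-DKO. Of 29 other late activity-induced genes tested in DKO against KOWT, 8 were lower and 1 higher, with a median log2 fold change of -0.19. Penk, the precursor of enkephalins, rose from 17.6 ± 3.47 CPM in KOWT to 30.5 ± 7.55 in DKO (SD, n = 7 each; log2 fold change 0.79 ± 0.13, edgeR adjusted p = 0.000217). Pcsk1, the convertase that cleaves granins and prohormones, fell from 29.8 ± 4.12 to 19.1 ± 4.49 CPM (-0.65 ± 0.15), Nrn1, a neuritogenic membrane protein, from 258 ± 25.7 to 208 ± 8.23 (-0.31 ± 0.06) and the receptor gene Gpr3 from 5.59 ± 1.23 to 3.40 ± 0.703 (-0.72 ± 0.15). Of 33 immediate early genes, 19 were lower and 0 higher, with a median of -0.47. Fosb fell from 7.87 ± 5.28 to 1.92 ± 0.955 CPM (-1.98 ± 0.35), Npas4 from 12.1 ± 8.05 to 3.75 ± 1.12 (-1.67 ± 0.31), Nr4a1 from 72.7 ± 26.9 to 30.9 ± 11.3 (-1.23 ± 0.22) and Gadd45b from 10.2 ± 1.58 to 6.21 ± 1.10 (-0.72 ± 0.13). Nr4a1 is the third member of the Nr4a family, so the whole family was lower in DKO. Against WT-DKO, which shares the DKO libraries, 12 of 33 immediate early genes were lower and 2 higher, with a median of -0.33. Npas4 (-1.27 ± 0.30, adjusted p = 0.00284), Nr4a1 (-0.96 ± 0.20) and Gadd45b (-0.56 ± 0.12) fell there as well, and Fosb missed the threshold (-0.84 ± 0.33, adjusted p = 0.0611). Of 29 other late genes, 9 were lower and 3 higher there, with Penk again higher (0.81 ± 0.12). Between KOWT and WT-DKO, 4 immediate early genes were higher and 1 lower (12 and 2 at an unadjusted p under 0.05), with a median of 0.21.

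At day 0, 2.68% of all genes were lower and 2.41% higher in TKO against KOWTKO. Of 29 other late genes in TKO against KOWTKO, 1 was lower, the neuropeptide gene Npy (18.9 ± 2.78 CPM in KOWTKO, n = 8, and 13.4 ± 2.10 in TKO, n = 9; log2 fold change -0.50 ± 0.10, edgeR adjusted p = 0.00667). Of 31 immediate early genes, 1 was higher, the antiproliferative factor gene Btg2 (0.47 ± 0.12, adjusted p = 0.0197). Crh (-0.82 ± 0.25, adjusted p = 0.0507), Jund (-0.54 ± 0.16, adjusted p = 0.053) and Arf4 (-0.13 ± 0.04, adjusted p = 0.0519) lay just outside the threshold. In TKO against WT-TKO, 10 of 29 other late genes were lower and 2 higher, and 2 of 31 immediate early genes were lower and 4 higher, where 12% of all genes were lower and 10.8% higher, so the immediate early counts are near or below the background. Without WT-TKO replicate 8, a fit added after the data were seen, the other late genes counted 8 lower and 2 higher. Penk was at 1.55 to 4.18 CPM in TKO and at 2.46 to 5.04 CPM in WT-TKO except for replicate 8, at 36.5. Its log2 fold change was -1.71 ± 0.43 (adjusted p = 0.00677) with that library and -0.72 ± 0.18 (adjusted p = 0.00494) without it. Also lower in TKO were Npy (-0.71 ± 0.10) and the interneuron peptide gene Sst (-0.66 ± 0.12), both of which are also on the inhibitory neuron list. In KOWTKO against WT-TKO, 8 other late genes were lower and 2 higher, and 2 immediate early genes lower and 5 higher, beside 10.5% and 10.5% of all genes.

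**Figure D4:**
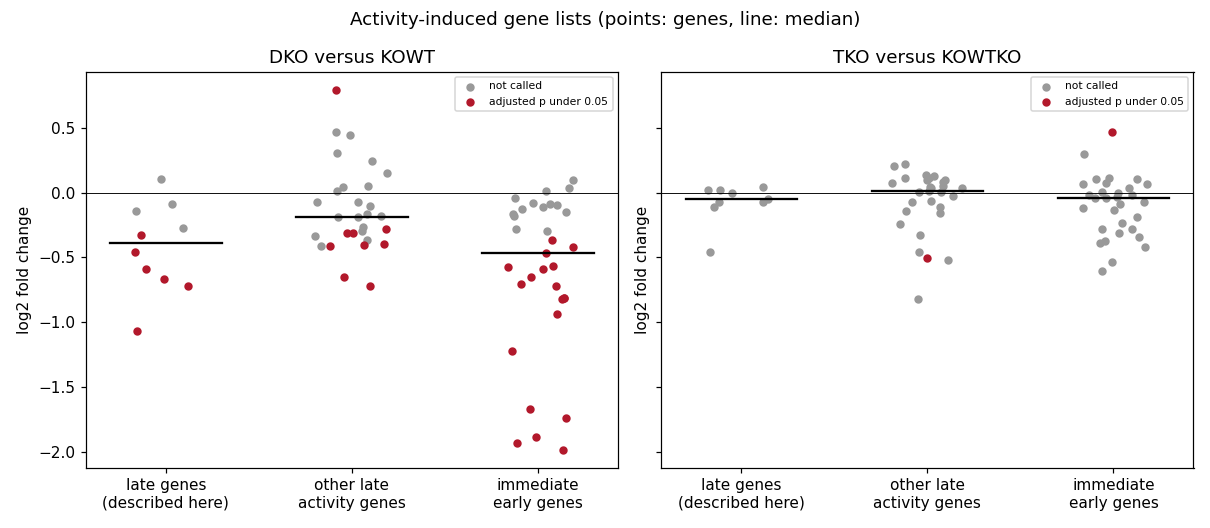
Log2 fold change (y axis) of the 10 late genes, of other late activity genes and of immediate early genes (points, red where called, with the list median as a line) in DKO against KOWT and TKO against KOWTKO. In the older comparison the medians are -0.39, -0.19 and -0.47, and at day 0 they are -0.05, 0.01 and -0.05.

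Regulators and partners of the 10 genes were counted in the same way, beside the same 10.6% of all genes lower and 10.2% higher in DKO against KOWT. Counts of 1 or 2 in a list of 8 to 12 genes are near that share. Among 13 activity-dependent regulators in DKO against KOWT, 3 were lower, Elk1 (log2 fold change -0.38 ± 0.06, edgeR adjusted p = 0.000112), Srf (-0.29 ± 0.06, adjusted p = 0.000742) and Creb1 (-0.23 ± 0.08, adjusted p = 0.0353), and Mef2a was higher (0.20 ± 0.05, adjusted p = 0.00897). Of 9 neurotrophin partners, 3 were lower and 0 higher, and the sorting receptors Sort1 (821 ± 62.6 CPM in KOWT, 658 ± 21.6 in DKO; -0.32 ± 0.05, adjusted p = 8.05e-05) and Sorl1 (-0.41 ± 0.08, adjusted p = 0.000834), which bind Bdnf or its precursor or receptor, had the smallest p. Of 11 Homer partners, 3 were lower and 0 higher. The inositol trisphosphate receptor Itpr1 fell from 416.5 ± 66.8 to 264.5 ± 40.1 CPM (-0.65 ± 0.10, adjusted p = 0.000117) and the calcium release channel Ryr1 from 33.4 ± 4.88 to 21.8 ± 4.46 (-0.61 ± 0.12, adjusted p = 0.00056). The third, named after its value was seen, was the related scaffold Homer2 (-0.42 ± 0.08, adjusted p = 0.000687).

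For activin, 2 of 12 partners were lower and 0 higher, the antagonist Fst (2.83 ± 0.909 CPM in KOWT and 1.46 ± 0.364 in DKO; log2 fold change -0.96 ± 0.23, edgeR adjusted p = 0.00374) and the inhibitory Smad7 (-0.53 ± 0.12, adjusted p = 0.0032). Fst stood at 1.08 ± 0.370 CPM in WT-DKO (n = 10). Of 11 prostaglandin genes, 1 was higher and 0 lower, the constitutive cyclooxygenase Ptgs1 (10.3 ± 1.62 to 12.9 ± 1.42 CPM; 0.33 ± 0.10, adjusted p = 0.0202). Of 8 granin processing genes, Pcsk1 alone was lower, and of 4 genes on the Nr4a list, Nr4a1 alone. None of 6 pentraxin partners was called in edgeR, DESeq2 or limma-voom, with 1 lower at an unadjusted p under 0.05, the AMPA receptor subunit Gria3 (-0.16 ± 0.06, adjusted p = 0.0741).

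In TKO against KOWTKO, with 2.68% of all genes lower and 2.41% higher, the partners of Homer1 and of Ptgs2 held the calls. Of 11 Homer partners, 3 were lower, with Shank3 (86.9 ± 18.9 CPM in KOWTKO and 61.1 ± 6.80 in TKO; log2 fold change -0.51 ± 0.10, edgeR adjusted p = 0.00667) and the metabotropic receptor Grm5 (-0.34 ± 0.08, adjusted p = 0.0179) first and, named after its value was seen, Shank1 (-0.43 ± 0.12, adjusted p = 0.0409) last. Of 10 prostaglandin genes, 3 were lower, with the receptor Ptger1 (-0.38 ± 0.10, adjusted p = 0.0231) and the synthase Ptges3 (-0.18 ± 0.05, adjusted p = 0.0363) first and, named after its value was seen, the synthase Ptges (-0.40 ± 0.12, adjusted p = 0.0445) last. No gene was called by edgeR among 13 regulators (2 higher at an unadjusted p under 0.05), 9 neurotrophin (2 lower), 6 pentraxin (1 higher and 1 lower), 8 granin (1 higher), 4 Nr4a (0) and 12 activin partners (1 higher), and DESeq2 and limma-voom called none of these either.

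Within groups, the 10 genes did not vary as 1 block. Correlations were taken over deviations from the group means of log2 CPM, and are descriptions of points that share libraries, depth and tissue composition. Over the 24 older libraries, Fosl2 went with Nr4a2 (Pearson's r = 0.735) and Nptx2 with Vgf (r = 0.734), while Homer1 and Vgf went in opposite directions (r = -0.564). Over the 25 newborn libraries, Fosl2 went with Nr4a3 (r = 0.833), Inhba (r = 0.59) and Nr4a2 (r = 0.572), and Nptx2 with Scg2 (r = 0.63), while Nptx2 ran opposite to Nr4a3 (r = -0.649) and Fosl2 (r = -0.641). Without WT-TKO replicate 8, which was high in both, Nptx2 and Scg2 were at r = 0.359, and Nptx2 was at -0.466 with Nr4a3 and -0.552 with Fosl2. The Fosl2 and Nr4a2 pair was thus positive at both ages, and the Nptx2 and Vgf pair fell to r = 0.076 at day 0.

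**Figure D5:**
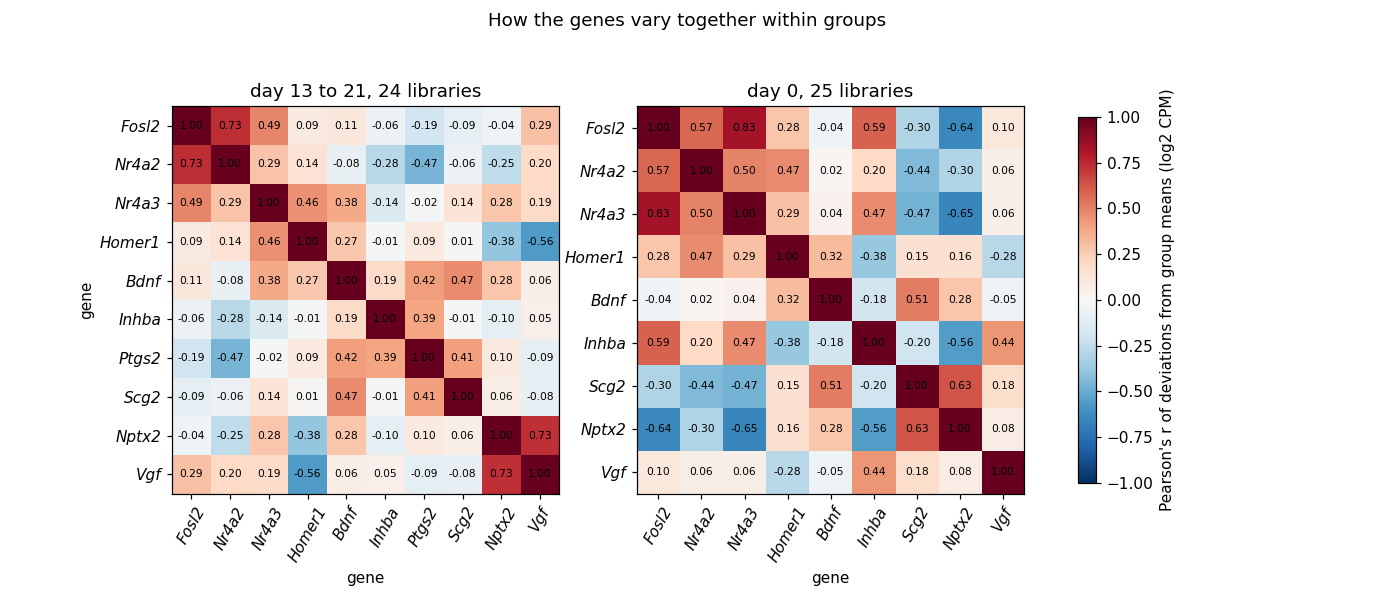
Pearson's r between the 10 genes (9 at day 0) of their deviations from group means, for the 24 older and the 25 newborn libraries. Fosl2 has a positive r with Nr4a2 (0.735 and 0.572) and with Nr4a3 (0.486 and 0.833) at both ages, Nr4a2 and Nr4a3 are at 0.285 in older libraries, and Nptx2 goes with Vgf in older libraries and with Scg2 at day 0 (0.63, and 0.359 without WT-TKO replicate 8).

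The same deviations were set beside the mean deviation of immediate early genes and of marker lists. Vgf followed the immediate early genes at day 0 (r = 0.814, n = 25) but not in the older libraries (r = 0.004, n = 24). In the older libraries, Nr4a3 (r = 0.55) and Fosl2 (r = 0.454) had the highest r with the immediate early mean. Nptx2 and Vgf followed excitatory neuron markers (r = 0.761 and 0.707), and Vgf also CA1 markers (r = 0.701). Ptgs2 and Inhba followed dentate gyrus markers (r = 0.579 and 0.544), while Nr4a2 and Fosl2 ran opposite to them (r = -0.656 and -0.444). These links were not particular to the dentate gyrus list. With CA3 markers, Ptgs2 was at r = 0.553, Inhba at 0.221, Nr4a2 at -0.511 and Fosl2 at -0.387. Nr4a2 and Fosl2 were also at r = -0.515 and -0.513 with astrocyte markers and at 0.546 and 0.528 with CA1 markers. Nptx2 was at r = 0.554 with CA3 markers and Homer1 at -0.532 with CA1 markers. At day 0, Scg2 and Nptx2 followed myelin markers (r = 0.693 and 0.606), where WT-TKO replicate 8 was high in all of them, and without it r was -0.156 and 0.199. The genes whose deviations were most like the mean of the 10 (of 9 at day 0, without Ptgs2) were 4632415L05Rik (r = 0.748), Cbx8, Kcnn2, Prkrip1 and Brd3 (down to r = 0.666) of 13274 genes in the older libraries, and Dnajb14 (r = 0.871), Map1a, Psd3, B4galt6 and Disp2 (down to r = 0.806) of 13012 at day 0. Without WT-TKO replicate 8 the day 0 mean was most like Ank2 (r = 0.879) and Psd3 (r = 0.873). For single genes the highest r in older libraries was that of Vgf with Ttyh3 (r = 0.941), then Nptx2 with Wdr1 (r = 0.911) and Homer1 with Desi2 (r = 0.894). Fosl2 was most like Chrm4 (r = 0.83), Nr4a2 like Cbln4 (r = 0.836), Scg2 like Ube2e2 (r = 0.85), Ptgs2 like Ociad2 (r = 0.839), and Bdnf, Nr4a3 and Inhba like Fam49a (r = 0.701), Kcnk6 (r = 0.713) and Katnal1 (r = 0.721). At day 0 the highest were Fosl2 with Hecw1 (r = 0.935), Nptx2 with March2 (r = 0.915) and Nr4a3 with Ank2 (r = 0.909). These genes were picked for the highest r among 13274 or 13012 genes, and such a choice raises r by itself. How high r would run among unrelated genes was not tested.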

How the data were processed

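Hippocampal polyadenylated RNA was measured in 49 libraries from a TruSeq RNA v2 kit without strand information, per the labels' protocols, which do not say which of 2 column kits gave each RNA. The submitters' processing notes name CASAVA 1.8.2, STAR 2.3.0e, DESeq2 without a version, and mm10. Read counter and annotation: not given in the sources used here. Raw counts (whole reads per Ensembl gene) were deposited by the authors for 38355 genes. A further 5 lines that name no gene entered neither library sizes nor tests. Reads on no feature made up 8.89% to 17.5% and ambiguous reads 1.57% to 1.92% of a library. The 4 deposited tables of the authors' comparisons hold mean normalized counts (a signal scaled by size factors), log2 fold changes, and raw and adjusted p-values, per the file headers. Ptgs2 is listed in only 2 of them.

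Counts were tested with edgeR 4.0.16 (R 4.3.3): filterByExpr, TMM scaling, robust quasi-likelihood fit, Benjamini-Hochberg adjustment over all genes tested, calls at an adjusted p under 0.05. Groups of 1 age shared a fit, and contrasts across ages used all 49 libraries. Alternatives were DESeq2 1.42.0, limma-voom (limma 3.58.1), size factors in place of TMM, no filter, single libraries left out, replicate number as a block, only the groups compared, and marker means as covariates. Levels in CPM were scaled by TMM over all libraries, and correlations used log2 CPM with a prior count of 2. RPKM used annotated exonic length. Symbols and positions came from GENCODE M21 on GRCm38 (36602 genes matched by identifier). Chi-square comparisons of libraries within a group, over genes with at least 20 reads, found no library deposited a second time. Libraries of different groups were not compared.

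The members and lists were chosen with earlier results of these data known. Besides the 10 genes, the rule for named genes took the 4 genes of smallest p in each list (2 for lists under 12 genes) in DKO against KOWT and TKO against KOWTKO, of which the called and the nearest are printed, and the genes most alike within groups. The values of 1 called gene are not reported here. On counts simulated from these libraries, edgeR recovered 75 of 100 genes at 1.5-fold and 94 of 100 at 2-fold in DKO against KOWT (16114 genes, 3.43% of calls false), and 82 and 95 of 100 in TKO against KOWTKO (15715 genes, 4.32% false).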

Additional observations from a re-analysis of the deposited data

Results flagged for a closer look

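A library far from the rest of its group was seen in 6 of 60 combinations of gene and group, and chance alone marks about 1 in 20. In WT-TKO replicate 8, Nptx2 was at 19.0 CPM (others 10.6 to 13.2), Scg2 at 107 CPM (others 41.9 to 56.2) and Ptgs2 at 1.93 CPM (others 0 to 0.325), in the library that was also high in myelin markers. Nptx2 was low in KOWT replicate 7, at 37.5 CPM (others 54.0 to 65.9). Nr4a3 was low in WT-DKO replicate 9, at 81.7 CPM (others 106 to 132). Inhba was high in WT-TKO replicate 1, at 2.62 CPM (others 1.27 to 1.90).

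Changes that differed between the older and newborn comparisons by a test of the difference itself (edgeR quasi-likelihood, adjusted over all genes) were found for 5 genes with littermates as the reference and 3 with wild types. All were lower, beside 4.78% and 4.55% lower over all genes. These comparisons differ in Sh3gl3 as well as in age, and the 2 cannot be told apart. With littermates the differences in log2 fold change were -0.50 for Bdnf, -0.52 for Homer1, -0.74 for Fosl2, -0.69 for Nr4a2 and -0.96 for Inhba. With wild types they were -0.52 for Homer1, -0.42 for Fosl2 and -0.75 for Nr4a2. The calls of Nr4a2 and Inhba with littermates, and of Fosl2 with wild types, ended under some alternatives, as given above.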

How the results depend on the processing

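The calls of Bdnf, Homer1, Fosl2, Nr4a2, Nr4a3 and Inhba in DKO against KOWT held under each of 24 alternatives, and no called change of the 10 genes took the opposite sign in any comparison. Of 1740 recomputed values, 52 changed their call. Uncalled values near 0 did change sign, such as Nptx2 in DKO against WT-DKO (-0.10 to 0.12) and Scg2 in TKO against WT-TKO (-0.04 to 0.34). Causes of the changes were not tested.

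Genes called in DKO against KOWT went from 3347 to 2228 with only the groups compared, 2150 with the myelin covariate and 1082 without the libraries low in Sh3gl3. In TKO against KOWTKO they went from 800 to 1265 in DESeq2 and 483 without a filter, where members lower went from 0 to 1 (Vgf) in DESeq2. In TKO against WT-TKO members lower went from 1 to 0 with the myelin covariate, the dentate gyrus covariate or without the 2 newborn libraries that stood apart. The dentate gyrus covariate also gave 1 member higher (Homer1) and 2065 genes in place of 3595. In KOWTKO against WT-TKO it took members lower from 1 to 0. Members higher there went from 1 to 0 without a filter, with the replicate block, with the choroid plexus covariate or without the 2 libraries, and to 2 (Homer1 and Scg2) with the myelin covariate. Members higher in KOWT against WT-DKO went from 0 to 1 with the choroid plexus, myelin or dentate gyrus covariate (Fosl2). For the first difference between ages, members lower went from 5 to 3 and genes from 1496 to 883 without a filter and 358 without the 7 libraries. For the third, DESeq2 called 1 lower (Vgf) and 1 higher (Ptgs2) in place of 0, and leaving out the 7 libraries gave 1 higher (Fosl2).

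With 1 library left out, members lower were 6 to 7 and genes 2548 to 3763 in DKO against KOWT, members lower 5 to 7, members higher 1 and genes 3344 to 4517 in DKO against WT-DKO, and members 0 and genes 470 to 811 in KOWT against WT-DKO. At day 0, members lower were 0 to 1 and genes 330 to 1444 in TKO against KOWTKO (330 without KOWTKO replicate 5, 1444 without KOWTKO replicate 7). They were 0 to 1 and 2818 to 4154 in TKO against WT-TKO. In KOWTKO against WT-TKO members lower were 1, members higher 0 to 3 and genes 2508 to 3972.

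The labels do not state that replicate numbers pair the samples. Over same-numbered pairs, deviations correlated at -0.037 to 0.445 in DKO against KOWT (3 of 7 above 0.1) and -0.112 to 0.223 in TKO against KOWTKO (2 of 8). Pairs with different numbers were not correlated, so this check does not show whether the numbers pair samples. With the replicate number as a block, 6 members were lower in DKO against KOWT (2955 genes called), 7 lower in DKO against WT-DKO, where Vgf was added (3081 genes), 1 higher in KOWT against WT-DKO (Inhba, 535 genes), 0 in TKO against KOWTKO (553 genes), 1 lower in TKO against WT-TKO (3219 genes) and 1 lower in KOWTKO against WT-TKO (2856 genes). Depth limits Inhba, with 11 to 136 reads per library, and Ptgs2 at day 0.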
